A study of Homo sapiens with 5 samples.

Results

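Fibroblast growth factors (FGFs) and their receptors were followed in H9 cells, an established human embryonic stem cell line. The members are 10 genes looked up by symbol: the secreted ligands FGF2, FGF4, FGF8, FGF17 and FGF19, the intracellular homologous factor FGF13, and the receptor kinases FGFR1, FGFR2, FGFR3 and FGFR4. All 10 were found among the 26506 gene symbols of the deposited table, and all 10 reached 1 TPM in at least 1 library, as did 15761 symbols in all. TPM expresses each gene as a length-corrected share of the library's transcripts, so levels can be set side by side between genes as well as between libraries.

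The 5 libraries hold poly(A) RNA, and each is a group of its own. B3GALT5-/- cells (KO) were kept in 2iLAF or basal medium, and wild-type cells (WT) in 5iLAF, 2iLAF or basal medium. B3GALT5 encodes a galactosyltransferase that builds the globo-series stem cell antigens, and the design asks how its loss alters the transcriptome. 5iLAF and 2iLAF are inhibitor media for conversion to the naive state; the letters LAF usually stand for LIF, activin A and FGF2, and the labels do not list the contents. The labels call KO 2iLAF and WT 5iLAF naive, WT 2iLAF primed-naive, and KO basal and WT basal primed. Whether the knockout line is 1 clone is not given in the sources used here. Since each group is 1 library, the spread between cultures is unknown, and no test or error is given. "Higher" and "lower" below mean a log2 ratio of TPM + 1 of at least 1 in size.

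FGFs bind receptor tyrosine kinases together with heparan sulfate chains on the cell surface. The activated receptor signals through the adaptors FRS2 and GRB2 to RAS, RAF, MEK and ERK, and ERK in turn induces its own inhibitors. Primed human embryonic stem cells are maintained with FGF2, whereas media for the naive state block MEK. In the early embryo FGF4 is a ligand of the epiblast, FGF8 and FGF17 are closely related ligands of the primitive streak and later of the midbrain boundary, and FGF19 is an endocrine ligand that acts through klotho co-receptors in adult tissues. FGF13 is not secreted and binds voltage-gated sodium channels.

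Facts of the whole series touch each value below. All 12 pluripotency markers looked for were at or above 1 TPM in every library, with summed levels between 3591 and 7448 TPM. Single markers were not uniform, and WT 2iLAF differed in both directions. NANOG was at 16.5 TPM there against 99.0 to 171 TPM elsewhere, and TDGF1 at 69.25 against 239 to 589 TPM. SOX2 was at 324 TPM in WT 2iLAF against 55.3 to 190 TPM elsewhere, and LIN28A at 1233 against 357 to 632 TPM. The 10 naive markers summed to 95.4 TPM in KO 2iLAF, 116 in WT 5iLAF, 30.5 in WT 2iLAF, 11.8 in KO basal and 11.5 in WT basal. DNMT3L led them in KO 2iLAF (51.4 TPM) and WT 5iLAF (76.4 TPM), against 1.57 TPM in WT 2iLAF and 0.04 TPM in each basal library, and KLF5 and SUSD2 were also highest in KO 2iLAF and WT 5iLAF. KLF4 was instead highest in WT 2iLAF, at 20.5 TPM, against 7.57 in KO 2iLAF and 7.71 in WT 5iLAF. TFCP2L1 was highest in WT basal (2.77 TPM) and lowest in KO 2iLAF (1.38 TPM). KLF17, DPPA5 and ARGFX, of the same list, stayed at or below 0.54 TPM in every library. B3GALT5 stood at 1.17 TPM in KO 2iLAF, 2.08 in WT 5iLAF, 5.13 in WT 2iLAF, 5.98 in KO basal and 9.31 in WT basal, and the edited part of the gene is not given, so its level does not check the knockout. KO 2iLAF stood apart by 13 granulocyte markers that summed to 1283 TPM, against 2.3 to 10.2 TPM in the other libraries, and 9 erythroid markers summed to 222 TPM in KO 2iLAF and 230.4 TPM in WT basal, against 1.18 to 12.6 TPM in the rest. Their part in the FGF results was not tested. In bulk RNA, fewer cells of a type and less RNA per cell cannot be told apart.

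RefSeq promoter windows were matched for 5 of the 10 members. Those of FGFR3 and FGFR4 are shown, as receptors whose first RefSeq start is the outer edge of the gene. The ratios of these receptors had opposite signs in 2iLAF or 5iLAF against basal medium. FGFR3 was higher by the size rule in all 3 such comparisons, whereas FGFR4 had negative ratios of -1.10 in KO 2iLAF, -0.59 in WT 5iLAF and -0.34 in WT 2iLAF, of which only that of KO 2iLAF passed the size rule. Each line gives the 250 bases before the first RefSeq start on build GRCh38.p14, on the plus strand, at chr4:1793043-1793292 for FGFR3 and chr5:177086665-177086914 for FGFR4. Capitals mark GC boxes, the letters GGGCGG or their reverse complement CCGCCC.
FGFR3: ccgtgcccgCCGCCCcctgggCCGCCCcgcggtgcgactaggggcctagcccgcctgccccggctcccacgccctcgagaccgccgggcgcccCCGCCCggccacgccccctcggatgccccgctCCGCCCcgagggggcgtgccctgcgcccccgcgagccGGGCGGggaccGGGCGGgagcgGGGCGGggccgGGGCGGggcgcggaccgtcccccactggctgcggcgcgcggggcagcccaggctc
FGFR4: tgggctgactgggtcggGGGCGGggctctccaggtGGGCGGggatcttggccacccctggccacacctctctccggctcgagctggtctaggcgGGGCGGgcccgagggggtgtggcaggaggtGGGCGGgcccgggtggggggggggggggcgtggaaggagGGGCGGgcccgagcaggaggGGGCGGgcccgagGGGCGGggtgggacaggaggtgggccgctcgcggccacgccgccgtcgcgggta

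The FGFR3 window held 8 GC boxes, 4 on each strand, and the 4 in GGGCGG orientation began 88, 77, 66 and 55 bases before the start. FGFR4 held 7, all in GGGCGG orientation. At least 1 GC box was found in 42.6% of the 35116 windows of the same length, at least 7 in 1.12% and at least 8 in 0.584%. On either strand, neither window held the TATA box letters TATAAA, which 10.7% of all windows held, or the octamer letters ATGCAAAT, which 1.63% held. The ETS core letters CCGGAAG, held by 8.52% of windows, and the TCF/LEF letters ATCAAAG, held by 2.26%, were not found in them either. The bases G and C made up 86.8% of the FGFR3 window and 79.6% of the FGFR4 window. Of all windows, 99.8% had a lower share of G and C than FGFR3, and 96.3% a lower share than FGFR4. The motif shares above are over windows of any base content, and the part of base content in these matches was not tested. FGFR3 had 1 start among the windows and FGFR4 had 2, of which only the first is described here. Both printed windows were thus rich in GC boxes, while the levels of these receptors across media differed as described below. A match of letters is a description, not a binding site.

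FGF4, FGF8 and FGF17 were abundant in KO 2iLAF and WT 5iLAF and near 0 or low in the other 3 libraries. FGF8, the most abundant ligand of KO 2iLAF, stood at 79.9 TPM in KO 2iLAF, 115 in WT 5iLAF, 1.80 in WT 2iLAF, 0.85 in KO basal and 1.73 in WT basal. FGF17 stood at 43.0 TPM in KO 2iLAF, 122 in WT 5iLAF and 1.41 in WT 2iLAF, was listed at 0 in KO basal and stood at 0.29 in WT basal. FGF4, the epiblast ligand, stood at 33.9 TPM in KO 2iLAF, 41.2 in WT 5iLAF, 1.43 in WT 2iLAF, 0.06 in KO basal and 0.33 in WT basal. For each of the 3 genes, both high libraries lay far above the highest value of the other libraries, and WT 5iLAF was the higher of the pair.

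**Figure D1:**
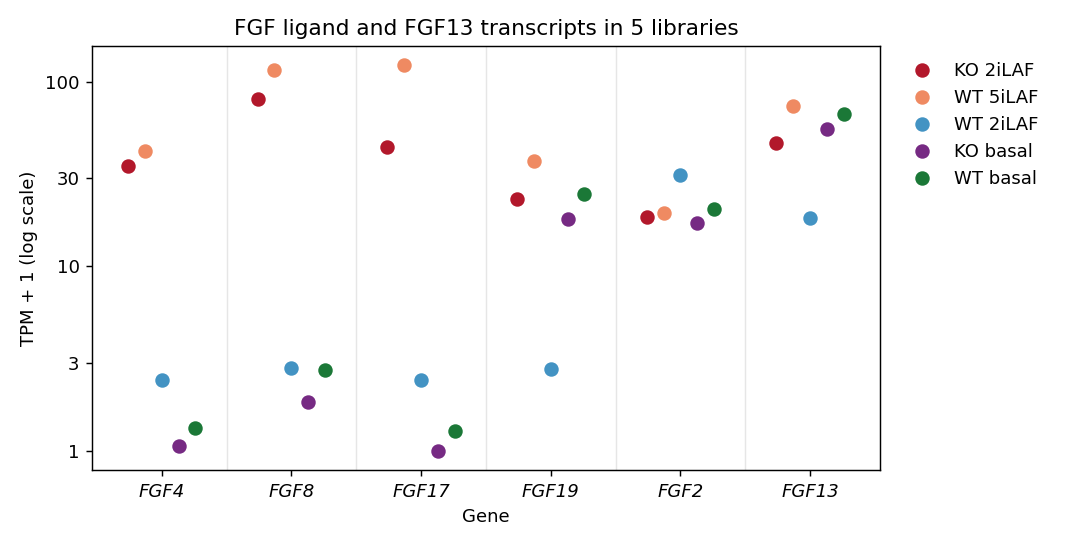
TPM + 1 (log scale) of the 5 secreted FGF ligands and of FGF13 in each of the 5 libraries, 1 point per library. FGF4, FGF8 and FGF17 split into a high pair (KO 2iLAF and WT 5iLAF, 33.9 to 122 TPM) and a low trio, FGF19 and FGF13 were lowest in WT 2iLAF, and FGF2 ranged over 16.2 to 30.1 TPM.

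FGF19 did not share that division. It stood at 22.0 TPM in KO 2iLAF, 36.4 in WT 5iLAF, 1.77 in WT 2iLAF, 16.9 in KO basal and 23.7 in WT basal, so that 4 libraries lay between 16.9 and 36.4 TPM and WT 2iLAF stood alone below them. FGF19 and FGF4 lie on chromosome 11 with only a pseudogene between them in the RefSeq gene order, and FGF3 follows FGF4. FGF3 stayed at or below 0.14 TPM in every library, so these neighbouring ligand genes did not share a pattern. KLB and KL, the klotho co-receptors that endocrine FGFs use in adult tissues, stayed at or below 0.09 TPM throughout.

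FGF2, the ligand added to media of primed cells, was the ligand that varied least. Its own transcript stood at 17.6 TPM in KO 2iLAF, 18.4 in WT 5iLAF, 30.1 in WT 2iLAF, 16.2 in KO basal and 19.5 in WT basal. No comparison took it past the size rule, and WT 2iLAF was the highest. FGF2 overlaps NUDT6, which runs antisense to it and stood between 3.42 and 9.04 TPM, and the strand setting of the counting is not given, so exchange of reads between these genes cannot be judged.

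FGF13 was the most abundant FGF gene of the basal libraries, although it encodes no receptor ligand. It stood at 45.4 TPM in KO 2iLAF, 73.0 in WT 5iLAF, 17.2 in WT 2iLAF, 54.6 in KO basal and 66.0 in WT basal. As with FGF19, WT 2iLAF was the lowest library. The antisense gene FGF13-AS1 stood between 2.32 and 7.66 TPM, with the same limit on strand.

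The receptors were all present in all libraries, and FGFR1, the main receptor of pluripotent cells, led everywhere. FGFR1 stood at 138 TPM in KO 2iLAF, 139.9 in WT 5iLAF, 374 in WT 2iLAF, 165 in KO basal and 174 in WT basal. FGFR2, which binds FGF7 and FGF10 in its epithelial form, stood at 101 TPM in KO 2iLAF, 55.4 in WT 5iLAF, 109 in WT 2iLAF, 42.8 in KO basal and 33.6 in WT basal. WT 2iLAF was the highest library for both, next to KO 2iLAF for FGFR2 and well apart for FGFR1.

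FGFR3, a receptor best known from growing cartilage and the neural tube, had the widest range of the receptors in relative terms. It stood at 38.8 TPM in KO 2iLAF, 40.7 in WT 5iLAF, 178 in WT 2iLAF, 9.45 in KO basal and 8.10 in WT basal, which gives 3 levels, one for the basal pair, one for KO 2iLAF and WT 5iLAF, and one for WT 2iLAF. FGFR4, the receptor that pairs with FGF19 in liver, stood at 32.7 TPM in KO 2iLAF, 43.2 in WT 5iLAF, 51.5 in WT 2iLAF, 71.1 in KO basal and 65.6 in WT basal. It was the only one of the 4 receptors with its 2 highest values in the basal libraries.

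**Figure D2:**
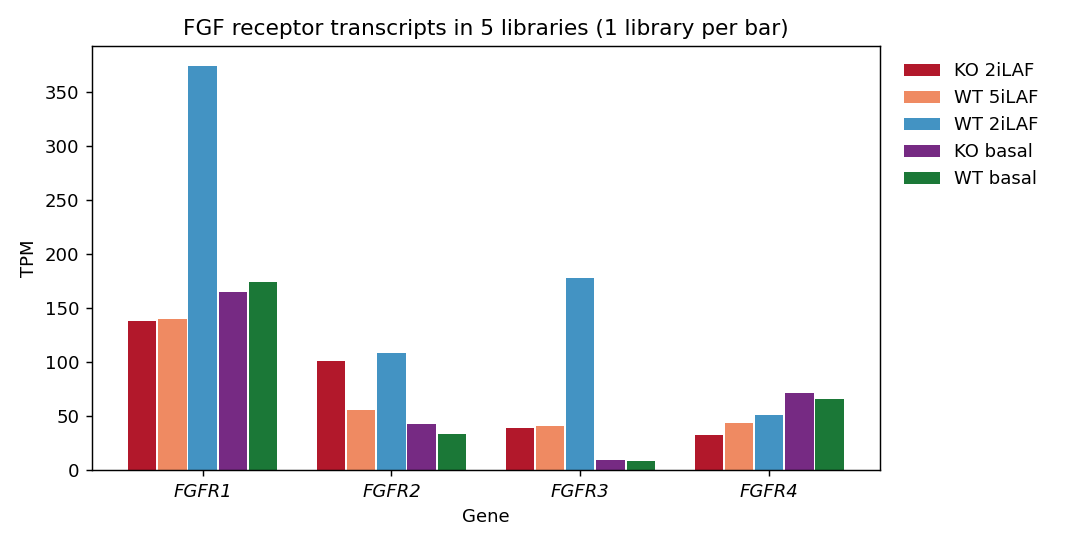
TPM of FGFR1, FGFR2, FGFR3 and FGFR4, with 1 bar per library and the axis starting at 0. WT 2iLAF was highest for FGFR1 (374 TPM), FGFR2 (109 TPM) and FGFR3 (178 TPM), and the basal libraries were highest for FGFR4 (71.1 and 65.6 TPM).

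The mix of receptors differed accordingly. FGFR1 to FGFR4 summed to 310.2 TPM in KO 2iLAF, 279 in WT 5iLAF, 712 in WT 2iLAF, 289 in KO basal and 282 in WT basal. FGFR1 made up 44.4% of that sum in KO 2iLAF, 50.1% in WT 5iLAF, 52.5% in WT 2iLAF, 57.3% in KO basal and 61.9% in WT basal. The second receptor was FGFR2 in KO 2iLAF (32.5%) and in WT 5iLAF (19.8%), FGFR3 in WT 2iLAF (25%), and FGFR4 in KO basal (24.6%) and WT basal (23.3%). FGFR3 took 3.28% of the sum in KO basal and 2.88% in WT basal. FGFRL1, a receptor without a kinase domain, was not a member and stood between 13.7 and 23.8 TPM.

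The ligand pool differed more between libraries than the receptor pool, in relative terms. The 18 secreted FGF genes of the family summed to 218 TPM in KO 2iLAF, 352 in WT 5iLAF, 38.9 in WT 2iLAF, 40.7 in KO basal and 50.8 in WT basal. FGF8, FGF17 and FGF4 made up 36.6%, 19.7% and 15.5% of it in KO 2iLAF, and 32.7%, 34.6% and 11.7% in WT 5iLAF. FGF2 alone made up 77.3% in WT 2iLAF. FGF19 and FGF2 led KO basal, with 41.6% and 39.9%, and WT basal, with 46.6% and 38.4%.

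Between the KO and WT libraries in basal medium, every member stayed within the size rule. Of the 10 members, 0 were higher and 0 lower in KO basal against WT basal, where 0.704% of the 15761 genes were higher, 1.05% lower and 1.76% either. A count of 0 among 10 genes is near those shares, so it is not read as a result about the members. The members had a median log2 ratio of -0.26, beside -0.06 over all genes. All 6 ligand and FGF13 ratios were negative, from -0.56 for FGF8 to -0.25 for FGF2, and those of the receptors ran from -0.08 for FGFR1 to 0.34 for FGFR2. With a pseudocount of 0.1 in place of 1, FGF4 and FGF17, both under 0.4 TPM in these libraries, passed the size rule as lower, at -1.43 and -1.96. The sign for FGFR1 turned to 0.01 after median-ratio scaling.

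WT cells in 5iLAF were set against WT basal. FGF17, FGF8, FGF4 and FGFR3 were higher, with log2 ratios of 6.57, 5.41, 4.99 and 2.20, and no member was lower, so that 4 of 10 members were higher against 10.7% of all genes, with 11.4% of all genes lower and 22.1% either. Among the members within the size rule were FGFR2 at 0.71, FGF19 at 0.60 and FGFR4 at -0.59. The median over the members was 0.65, beside -0.06 over all genes.

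WT cells in 2iLAF against WT basal gave another set. FGFR3, FGFR2 and FGFR1 were higher, at 4.30, 1.67 and 1.10, and FGF19 and FGF13 were lower, at -3.16 and -1.88. Thus 3 of 10 members were higher against 4.73% of all genes, and 2 of 10 lower against 7.03%, or 5 of 10 in either direction against 11.8%. On the TPM scale without a pseudocount, FGFR3 was 22.0-fold and FGFR2 3.24-fold as high as in WT basal. FGF4 and FGF17, at 0.87 and 0.90, stayed within the size rule but passed it with a pseudocount of 0.1, at 1.83 and 1.95. Over all genes the median was -0.13, and median-ratio scaling, which brought it to 0.00, turned the counts of all genes from 745 higher and 1108 lower (40.2% higher) to 960 and 831 (53.6% higher). Under that scaling the same numbers of members, 3 and 2, were counted, and the log2 ratios were 1.27 for FGFR1 and -1.71 for FGF13.

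KO cells in 2iLAF against KO basal came close to the 5iLAF pattern for the ligands. FGF17, FGF8, FGF4, FGFR3 and FGFR2 were higher, at 5.46, 5.45, 5.04, 1.93 and 1.22, and FGFR4 was lower, at -1.10. That is 5 of 10 members higher and 1 lower, against 15.9% and 11.8% of all genes and 27.7% in either direction. FGFR3 was 4.11-fold and FGFR4 0.46-fold as high as in KO basal on the TPM scale. FGF2, FGF13, FGF19 and FGFR1 lay between -0.26 and 0.36.

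**Figure D3:**
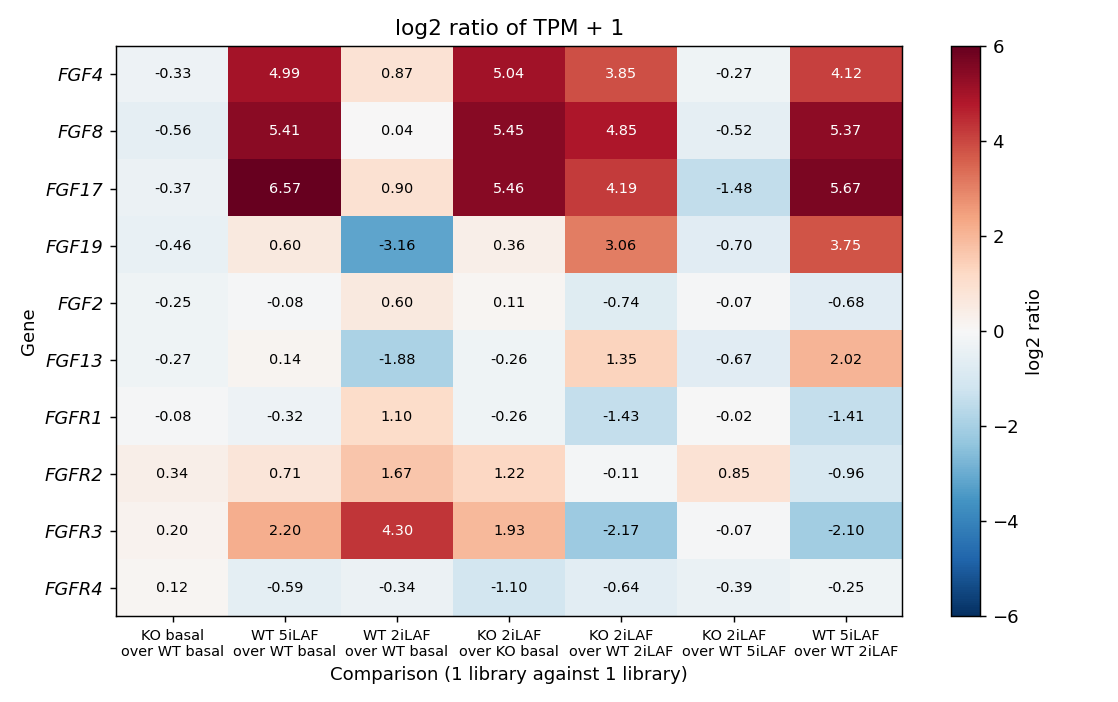
The log2 ratio of TPM + 1 of each of the 10 members (rows) in each of the 7 comparisons of 2 libraries (columns), with the value printed in each cell and the first-named library on top of the ratio. KO basal over WT basal held no ratio of 1 or more in size, and the FGF4, FGF8 and FGF17 ratios were 3.85 or more in each comparison that sets KO 2iLAF or WT 5iLAF against WT 2iLAF or basal medium.

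Within 2iLAF, KO cells were set against WT cells. FGF8, FGF17, FGF4, FGF19 and FGF13 were higher in KO, at 4.85, 4.19, 3.85, 3.06 and 1.35, and FGFR3 and FGFR1 were lower, at -2.17 and -1.43. Here 5 of 10 members were higher, against 16.6% of all genes, and 2 lower, against 10.8%, or 7 in either direction against 27.5%. Of the 5 secreted ligands only FGF2 was therefore not higher in KO 2iLAF, while FGFR2, at 101 TPM in KO and 109 TPM in WT, was near level.

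WT 5iLAF against WT 2iLAF shares the WT 2iLAF library with the comparison just given. FGF17, FGF8, FGF4, FGF19 and FGF13 were higher in 5iLAF, at 5.67, 5.37, 4.12, 3.75 and 2.02, and FGFR3 and FGFR1 lower, at -2.10 and -1.41. That is 5 of 10 members higher and 2 lower, against 12.2% and 9.54% of all genes and 21.7% in either direction. FGFR2, at -0.96, passed the size rule as lower under median-ratio scaling, at -1.04.

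KO 2iLAF against WT 5iLAF differs in genotype and in medium. FGF17, at 43.0 TPM in KO 2iLAF and 122 TPM in WT 5iLAF, was the 1 member of 10 to pass the size rule, as lower (-1.48), and 0 were higher, against 1.03% of all genes lower, 4.9% higher and 5.93% either. FGFR1, FGF2 and FGFR3 had ratios of -0.02, -0.07 and -0.07. FGFR2 was at 0.85, or 1.82-fold on the TPM scale.

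Markers of other cell types moved with the ligands. The 14 primitive streak and mesoderm markers summed to 676 TPM in KO 2iLAF and 731 in WT 5iLAF, against 10.2 TPM in WT 2iLAF, 7.41 in KO basal and 8.79 in WT basal, with 13 of the 14 at or above 1 TPM in KO 2iLAF and in WT 5iLAF. MIXL1, HAND1 and T led them in KO 2iLAF, and MIXL1, T and WNT8A in WT 5iLAF. The 9 endoderm markers summed to 1013 TPM in KO 2iLAF and 1979 in WT 5iLAF, against 4.83 to 7.97 TPM elsewhere, and the 10 fibroblast markers to 5514 and 1882 TPM, against 72.3 to 138.6 TPM. In WT 2iLAF, where FGFR1, FGFR2 and FGFR3 were highest and FGF19 and FGF13 lowest, the 11 anterior neural markers summed to 784 TPM, against 28.7 TPM in KO 2iLAF, 45.2 in WT 5iLAF, 18.4 in KO basal and 36.5 in WT basal. OTX2, SOX21 and FEZF1 were at the top of that list in WT 2iLAF, whereas PAX6, SOX1, LHX2 and RAX stayed below 1 TPM in all libraries. SIX6, of the same list, went the other way, at 0.13 TPM in WT 2iLAF against 17.2 TPM in WT basal, where it led the list. The 10 trophoblast and amnion markers summed to 56.9 TPM in WT 2iLAF and to between 14.7 and 17.1 TPM elsewhere, with CGA at 0 in every library. KRT7 (27.0 TPM) and TFAP2A (17.3 TPM) led that WT 2iLAF sum. By number the order differed, with 4 markers at or above 1 TPM in WT 2iLAF, 6 in KO 2iLAF and 5 in WT 5iLAF. GABRP went the other way, at 0.39 TPM in WT 2iLAF against 8.29 in KO basal and 4.65 in WT basal. The part of these cell types in the FGF levels was not tested.

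**Figure D4:**
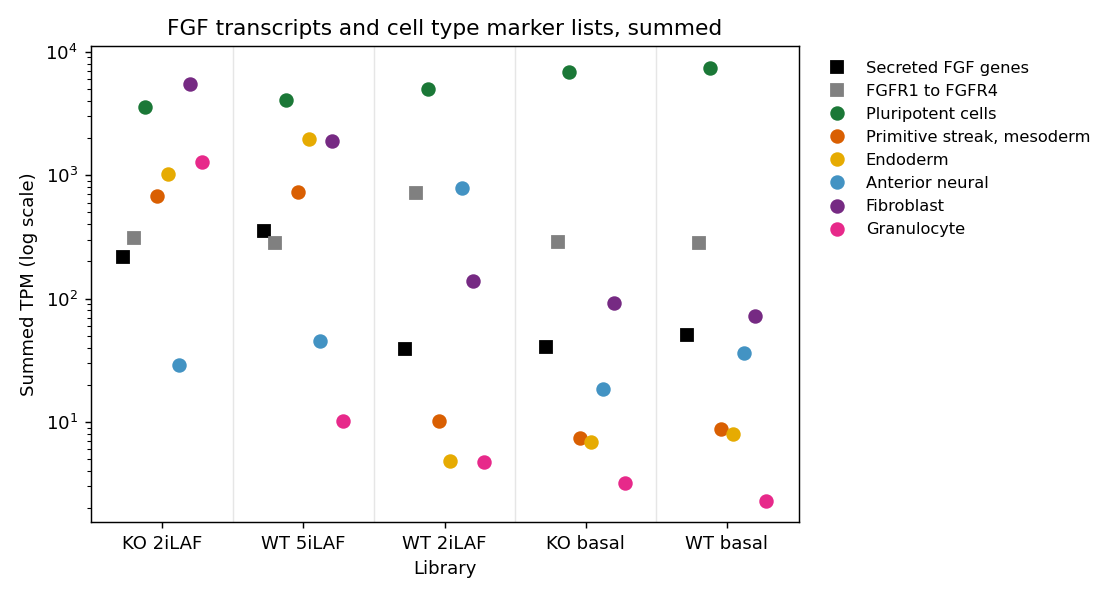
Summed TPM (log scale) of the 18 secreted FGF genes, of FGFR1 to FGFR4 and of 6 marker lists in each library. Secreted FGF genes and primitive streak, endoderm and fibroblast markers were highest in KO 2iLAF and WT 5iLAF, whereas the receptor sum (712 TPM) and the anterior neural markers (784 TPM) were highest in WT 2iLAF.

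Genes with the most similar profiles were sought among 10366 genes that reached 10 TPM in some library, by the Euclidean distance between centred log2(TPM + 1) profiles over the 5 libraries, which rests on 5 points. Nearest to FGF17 were DNMT3L, a methyltransferase cofactor (distance 0.74), WNT8A, a ligand of the streak (1.04), and HIST1H2BN (1.10). FGF8 was nearest to PRAC1 (0.57), EOMES, a T-box factor of the streak (0.67), and HIST1H2BN (0.70). FGF4 was nearest to HPGD (0.40), the collagen gene COL12A1 (0.45) and TNC, tenascin C (0.56). PCED1B (0.59), IER3, an immediate-early gene (0.63), and LPAR6 (0.66) were nearest to FGF19, and ITGB5 (0.42), CD200 (0.42) and STOX2 (0.46) to FGF13. All of these FGF19 and FGF13 neighbours had their lowest level in WT 2iLAF, as FGF19 and FGF13 did. The choice by profile favours this, so it is not a separate result.

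Among receptors, FGFR3 was nearest to TFAP2A, an AP-2 transcription factor (0.43), SAMD11 (0.64) and IRX1 (0.69), which were each at or below 0.32 TPM in the basal libraries and between 17.3 and 36.4 TPM in WT 2iLAF. FGFR2 was nearest to ALCAM (0.40), the heparin-binding factor gene MDK (0.45) and PALM (0.46). FGFR1, FGFR4 and FGF2, with flatter profiles, had nearer neighbours: PRR14L (0.22), C12orf57 (0.24) and MFHAS1 (0.25) for FGFR1, PITPNA-AS1 (0.07), PPP1R35 (0.08) and CCBL2 (0.10) for FGFR4, and OGG1 (0.09), CCS (0.12) and NUMA1 (0.12) for FGF2.

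The rest of the family and the pathway were read from gene lists, whose counts stand beside the shares over all genes: 15.9% higher and 11.8% lower in KO 2iLAF over KO basal, 10.7% and 11.4% in WT 5iLAF over WT basal, and 4.73% and 7.03% in WT 2iLAF over WT basal. Of 15 paracrine ligand genes, 10 reached 1 TPM somewhere, and these include FGF2, FGF4, FGF8 and FGF17. In KO 2iLAF over KO basal 7 of the 10 were higher and 0 lower, in WT 5iLAF over WT basal 7 were higher and 1 lower, and in WT 2iLAF over WT basal 0 were higher and 1 lower, with medians of 1.87, 2.18 and 0.05 beside 0.02, -0.06 and -0.13 over all genes. Each count of 7 includes the members FGF4, FGF8 and FGF17 described above, so it is not a separate result for them. The filter also favours these counts and medians. FGF7 and FGF10 reached 1 TPM only in KO 2iLAF and WT 5iLAF, FGF1 only in KO 2iLAF and FGF9 only in WT 5iLAF. Such genes entered the list only through a library where they were high, so the counts are not read as a result about the family. FGF10 and FGF7, ligands that mesenchyme makes for epithelial FGFR2, stood at 3.74 and 3.24 TPM in KO 2iLAF and at 4.24 and 2.94 TPM in WT 5iLAF, against at most 0.06 TPM elsewhere. FGF18, of the FGF8 subfamily, stood at 10.8 TPM in KO 2iLAF, 9.90 in WT 5iLAF, 0.57 in WT 2iLAF, 2.68 in KO basal and 1.10 in WT basal. FGF16 was the lower gene in WT 5iLAF, listed at 0 against 2.04 TPM in WT basal. FGF5, a marker of the primed epiblast in mouse, stayed at or below 0.30 TPM in all 5 libraries.

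Membrane proteins that bind FGF receptors differed in both directions. Of 7 such genes 6 reached 1 TPM, and 4 were higher and 1 lower in KO 2iLAF over KO basal and likewise in WT 5iLAF over WT basal, against 1 higher and 2 lower in WT 2iLAF over WT basal. With 6 genes, 1 gene in a direction is near the share over all genes in the first pair of comparisons. FLRT3, a leucine-rich protein that promotes FGF signalling, stood at 34.5 TPM in KO 2iLAF, 37.1 in WT 5iLAF, 16.1 in WT 2iLAF, 0.54 in KO basal and 0.56 in WT basal. CDH2, N-cadherin, stood at 187 TPM in KO 2iLAF and 186 in WT 5iLAF, against 72.5 in WT 2iLAF, 23.8 in KO basal and 36.1 in WT basal. IL17RD, a feedback inhibitor of FGF receptors, stood at 18.5, 19.8 and 3.01 TPM in KO 2iLAF, WT 5iLAF and WT 2iLAF, against 46.4 in KO basal and 46.5 in WT basal. Among FGF-binding proteins, FGFBP3 stood at 15.6 TPM in KO 2iLAF and 13.9 in WT 5iLAF, against 86.7 in WT 2iLAF, 83.4 in KO basal and 73.1 in WT basal.

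Heparan sulfate genes, which supply the co-receptor chains, are described by enzyme. Of 18 synthesis and editing genes at or above 1 TPM somewhere, 4 were higher and 3 lower in KO 2iLAF over KO basal, 5 higher and 2 lower in WT 5iLAF over WT basal, and 3 higher and 2 lower in WT 2iLAF over WT basal. In KO 2iLAF over KO basal these counts are near the 15.9% and 11.8% of all genes, and the list median was 0.09 beside 0.02 over all genes, so they are not read as a result about the list. SULF2, which removes 6-O-sulfates, stood at 79.8 TPM in KO 2iLAF, 75.5 in WT 5iLAF, 29.4 in WT 2iLAF, 7.03 in KO basal and 14.98 in WT basal. Its paralogue SULF1 stood at 12.5, 9.90 and 0.47 TPM in KO 2iLAF, WT 5iLAF and WT 2iLAF, against 26.3 in KO basal and 16.8 in WT basal. HS3ST3A1, a 3-O-sulfotransferase, stood at 25.7 TPM in KO 2iLAF, 26.1 in WT 5iLAF, 5.28 in WT 2iLAF, 2.21 in KO basal and 1.68 in WT basal, and EXT1, of the chain polymerase, at 172, 113, 20.5, 30.1 and 30.6 TPM in the same order. Of 11 proteoglycan cores, 2 were higher and 1 lower in WT 2iLAF over WT basal, among them GPC3, glypican 3, at 576 against 64.5 TPM and GPC6 at 4.14 against 18.9 TPM. In KO 2iLAF over KO basal 1 core was higher and 3 lower, and in WT 5iLAF over WT basal 0 were higher and 2 lower, with SDC2, syndecan 2, at 12.7 TPM in KO 2iLAF against 52.8 in KO basal, and at 9.15 TPM in WT 5iLAF against 29.9 in WT basal. Nothing is read about the list from counts this small beside the shares over all genes.

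Few genes of the cytoplasmic relay passed the size rule, and more of the genes that ERK induces did. Of 20 adaptors and kinases between receptor and ERK, all reached 1 TPM, and 1 was higher and 0 lower in KO 2iLAF over KO basal (HRAS, at 72.9 against 26.6 TPM), 0 and 0 in WT 5iLAF over WT basal, and 0 and 1 in WT 2iLAF over WT basal (SOS1, a RAS exchange factor, at 5.82 against 12.8 TPM). SHC1 and MAP2K2, at the highest mean level of that list, ranged from 145 to 243 and from 116 to 168 TPM. Of 19 ERK-induced genes 3 were higher and 8 lower in KO 2iLAF over KO basal, 1 higher and 9 lower in WT 5iLAF over WT basal, and 0 higher and 13 lower in WT 2iLAF over WT basal. The medians were -0.84, -0.80 and -1.67 in that order, and the counts of lower genes stand beside 11.8%, 11.4% and 7.03% of all genes. The 3 higher in KO 2iLAF are near the 15.9% of all genes and the 1 higher in WT 5iLAF is below the 10.7%. DUSP6, a phosphatase that inactivates ERK, stood at 4.66 TPM in KO 2iLAF, 2.98 in WT 5iLAF, 1.24 in WT 2iLAF, 370 in KO basal and 303 in WT basal. The FGF-responsive transcription factor ETV4 stood at 18.4 TPM in KO 2iLAF, 7.44 in WT 5iLAF, 6.30 in WT 2iLAF, 156 in KO basal and 190.4 in WT basal. Not every gene of the list shared that pattern. SPRY2, a feedback inhibitor, stood at 54.8 TPM in KO 2iLAF, 57.8 in WT 5iLAF, 13.2 in WT 2iLAF, 38.0 in KO basal and 60.7 in WT basal, whereas its relative SPRY4 stood at 7.82, 6.17, 1.91, 98.5 and 97.0 TPM in the same order. The 3 higher genes of KO 2iLAF over KO basal, a share near that of all genes, were the immediate-early genes FOS, at 21.6 against 3.18 TPM, EGR1, at 9.73 against 1.86 TPM, and FOSL1, at 3.45 against 0.73 TPM. The same 3 genes were the lower ones of KO basal over WT basal, where 0 of the 19 were higher. In that comparison 1.05% of all genes were lower and 0.704% higher. WT basal held FOS at 9.64, EGR1 at 5.28 and FOSL1 at 2.60 TPM. Both counts of 3 rest on the KO basal library.

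Within 2iLAF, KO over WT gave 10 of the 19 ERK-induced genes higher and 0 lower, against 16.6% and 10.8% of all genes, with a median log2 ratio of 1.18 beside 0.10 over all genes. IER3, an immediate-early gene, stood at 101 TPM in KO 2iLAF against 7.97 in WT 2iLAF, and SPRED2, an inhibitor of RAF activation, at 18.4 against 3.45 TPM. Of the 7 receptor-binding membrane protein genes, the 6 that reached 1 TPM somewhere were higher in KO 2iLAF, against the same 16.6%, among them FLRT2, at 17.0 against 0.59 TPM, and the adhesion protein L1CAM, at 61.0 against 10.2 TPM. Of the 11 proteoglycan cores 1 was higher, below that share, and 4 were lower, against 10.8% of all genes, with GPC3 at 83.3 against 576 TPM.

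**Figure D5:**
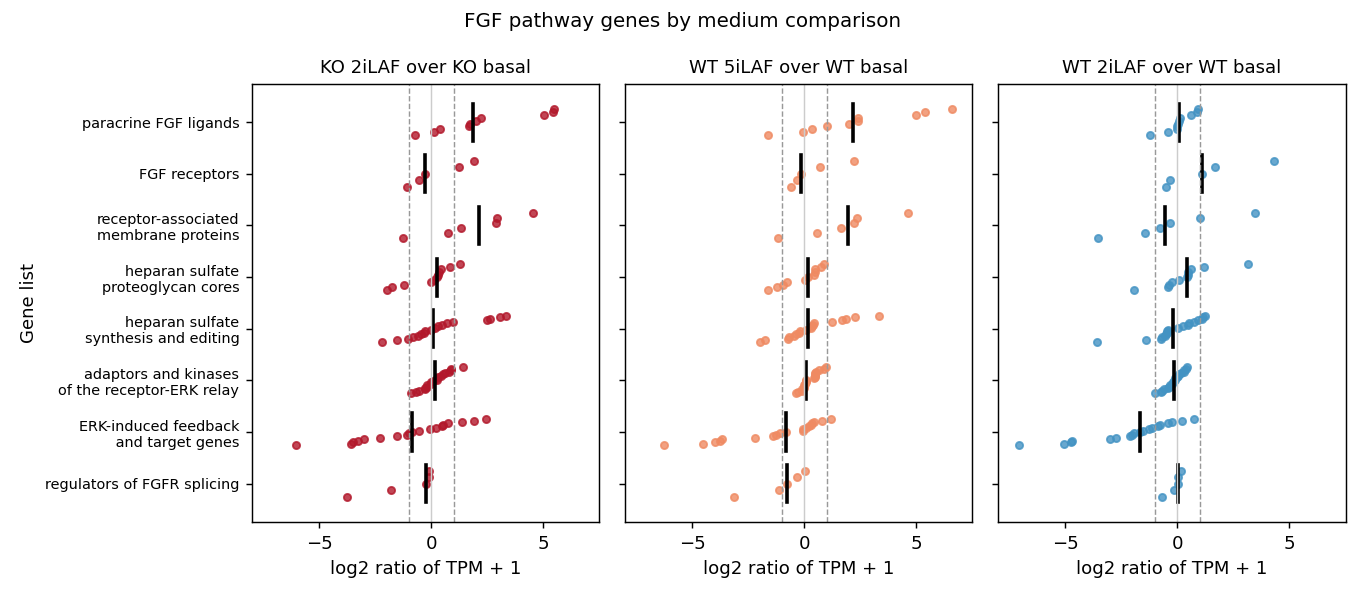
The log2 ratio of TPM + 1 of each gene (points) of 8 FGF pathway lists in 3 comparisons of media, with the list median as a black bar and dashed lines at the size rule. The adaptor and kinase list had 1, 0 and 1 gene outside the lines, and the paracrine ligands had medians of 1.87, 2.18 and 0.05.

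Splicing regulators of the receptors were read because FGFR2 and FGFR3 are made in an epithelial and a mesenchymal form, which gene-level TPM does not separate. ESRP1, which favours the epithelial forms, stood at 7.74 TPM in KO 2iLAF, 13.4 in WT 5iLAF, 78.4 in WT 2iLAF, 117 in KO basal and 125 in WT basal. ESRP2 stood at 8.89 TPM in KO 2iLAF and 12.96 in WT 5iLAF, against 26.7 to 32.8 TPM in the other libraries. Both were lower by the size rule in KO 2iLAF over KO basal and in WT 5iLAF over WT basal, and neither in WT 2iLAF over WT basal. RBFOX2 and PTBP1 passed the size rule in none of these 3 comparisons.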

How the data were processed

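Per the labels' protocols, poly(A) RNA was made into libraries with a stranded TruSeq kit. Per the submitters' processing notes, Trimmomatic 0.39, Bowtie2 2.3.4.1 and RSEM 1.2.28 were used with build hg19; for the annotation and RSEM's strand setting, no source used here names one. In 1 table the authors deposited a TPM and an FPKM value per gene symbol and library, per the file headers. FPKM served only as an alternative, and 18 empty columns were not used. Low FPKM values (0.15 to 0.6) showed no steps of whole reads: at most 4.83% of genes shared a ratio bin of 0.05 on the log2 scale. Depth is therefore unknown, and no counting interval is given.

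Each library was its own group, and 7 pairs were set against each other by log2 ratios of TPM + 1, which shrinks the ratios of low genes. A gene entered if any of the 5 libraries held it at 1 TPM or more, and 2-fold was the size rule. No test was possible with 1 library per group. The members, 12 pathway lists, 9 marker lists and the rule for named genes (all members; of each list up to 4 genes with the largest ratios past the size rule and 2 at the highest level, with other list genes named for their role after their values were seen) were chosen with earlier results of these data known. NUDT6, FGF13-AS1 and FGF3 were named for their position. Promoters, overlaps and gene order came from RefSeq (GRCh38.p14) by symbol. Alternatives were pseudocounts, filters, scalings, FPKM and size rules. The procedure was tested on simulated data, with planted changes well above the size rule in abundant genes. That test does not cover low genes or ratios near 2-fold. Python 3.11.15, numpy 2.4.6, pandas 2.3.3 and matplotlib 3.10.9 were used.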

Additional observations from a re-analysis of the deposited data

Results flagged for a closer look

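Results are listed here where 2 conditions moved a gene in opposite directions. With 1 library per condition no such difference was tested. The change from basal medium to 2iLAF had opposite signs in KO and WT cells for FGF19 (0.36 in KO and -3.16 in WT, a difference of 3.52 on the log2 scale) and for FGFR1 (-0.26 in KO and 1.10 in WT, a difference of -1.36).

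The ratio of KO over WT had opposite signs in 2iLAF and in basal medium for 8 of the 10 members. The differences, 2iLAF minus basal on the log2 scale, were 5.41 for FGF8, 4.56 for FGF17, 4.17 for FGF4, 3.52 for FGF19 and 1.62 for FGF13, and -2.37 for FGFR3, -0.76 for FGFR4 and -0.45 for FGFR2. The ratios in basal medium were all within 0.56 of 0 in these genes, so their signs are not firm. The share of all genes with opposite signs was not computed, so the count of 8 is not read as a result about the members. Both ways of reading share the same 4 libraries and give the same difference for a gene.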

How the results depend on the processing

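No paired analysis was possible because each group holds 1 library. Of 126 recomputed counts of members, 111 stayed within 1.5 times the reported count. With a pseudocount of 0.1, the members lower in KO basal over WT basal numbered 2 and those higher in WT 2iLAF over WT basal 5. A size rule of 1.5-fold gave 1 lower in WT 5iLAF over WT basal, 6 higher in WT 2iLAF over WT basal, 4 lower in KO 2iLAF over WT 2iLAF, 1 higher and 3 lower in KO 2iLAF over WT 5iLAF, and 4 lower in WT 5iLAF over WT 2iLAF. A size rule of 4-fold gave 1 higher and 1 lower in WT 2iLAF over WT basal, 3 higher and 0 lower in KO 2iLAF over KO basal, 1 lower in KO 2iLAF over WT 2iLAF, 0 lower in KO 2iLAF over WT 5iLAF and 1 lower in WT 5iLAF over WT 2iLAF. Among recomputed log2 ratios of members, 483 kept their side of the size rule, and the other 7 were the FGF4, FGF17 and FGFR2 values under a pseudocount of 0.1, another scaling or FPKM. For list medians, 548 kept their side of the size rule, 39 changed side, and 1 changed sign: the endocrine ligands in KO 2iLAF over WT 2iLAF, at 1.16 over 2 genes, were at -0.26 without the filter, which adds FGF23 to the list. Depth is unknown, so FGF4 and FGF17 in basal medium, near 0, cannot be ranked.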

Other observations

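The relatives of FGF13 followed it only in part. FGF12, another intracellular homologous factor, stood at 1.30 TPM in KO 2iLAF, 1.39 in WT 5iLAF, 1.36 in WT 2iLAF, 6.21 in KO basal and 6.13 in WT basal, so it was lower by the size rule in all 3 comparisons with basal medium. FGF13 was lower in WT 2iLAF over WT basal as well, at -1.88 beside -1.60 for FGF12, but not in the other comparisons with basal medium. FGF11 stood at 8.49 TPM in KO 2iLAF, 14.6 in WT 5iLAF, 20.8 in WT 2iLAF, 18.9 in KO basal and 15.2 in WT basal, and FGF14 stayed at or below 0.15 TPM. In KO 2iLAF over KO basal FGF11 was lower by the size rule (-1.07), while FGF13 was at -0.26. Of 11 sodium channel genes, the partners of these factors in neurons and muscle, 7 reached 1 TPM. SCN4A, the skeletal muscle channel, stood at 0.42 TPM in KO 2iLAF and 0.27 in WT 5iLAF, against 4.25 in WT 2iLAF, 3.54 in KO basal and 3.76 in WT basal.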
